A study of Homo sapiens with 6 samples.

Results

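The nuclear-encoded subunits of the respiratory chain and ATP synthase were followed in ARPE19 cells, a long-established human line derived from the retinal pigment epithelium. Members were all probe sets whose single gene symbol marks a subunit of complexes I to V (NDUFA, NDUFB, NDUFC, NDUFS and NDUFV genes without the NDUFAF assembly factors, SDHA to SDHD, UQCR genes and CYC1, COX4 to COX8 genes, and ATP5 genes). They numbered 192 of 49372 probe sets and covered 84 of 18132 genes. Complex I held 36 of these genes, complex II 3, complex III 9, complex IV 17 and complex V 19. ATP5IF1, an inhibitor of ATP synthase, and COX7A2L, a factor of supercomplexes, came in by their symbols although they are not structural subunits in the strict sense.

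The study compared 3 arrays of cells transfected with a GFP plasmid, the control, with 3 arrays of cells transfected with a plasmid that carries GFP and satellite alpha (SATalpha), which is the repeat DNA found at human centromeres. Both groups received 2.5 µg of plasmid per well in 6-well plates, and both were grown in DMEM with serum, penicillin and streptomycin. The time from transfection to harvest and the share of cells that took up plasmid were not given in the sources used here. Nothing in the labels ties the 3 wells to separate cultures, so p-values measure the spread between wells, which may be technical. RNA came from whole wells, and fewer cells of a type cannot be told apart from less RNA per cell.

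The median log2 value of an array was 5.29 to 5.32, and arrays of a group correlated at 0.996 or more across probe sets, which are not independent replicates. Of 12 fixed markers of retinal pigment epithelium, 7 lay above the floor of 5.19 used for testing, among them OTX2, MITF, KRT8 and KRT18. RPE65, BEST1, RLBP1, LRAT and TYRP1 lay below it. KRT8 and KRT18 were lower with SATalpha, by limma (log2 differences of -0.13, adjusted p = 0.0266, and -0.21, adjusted p = 0.000675), and their part in the results was not tested. The KRT8 call was lost without GFP replicate 1 or 3 or SATalpha replicate 1 or 2 (-0.15 to -0.10 over all 6 omissions), and its 7 other probe sets ran from -0.12 to 0.30, so its direction is uncertain, while KRT18 passed in all 6. Of 3 leukocyte markers CD68 alone lay above the floor, and of 3 endothelial markers PECAM1 and VWF lay just above it (5.34 and 5.35), and none of these 3 passed limma's threshold.

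The respiratory chain sits in the inner mitochondrial membrane. Complex I takes electrons from NADH and complex II from succinate, and both pass them through ubiquinone to complex III, cytochrome c and complex IV, which reduces oxygen. Complexes I, III and IV pump protons, and complex V, the ATP synthase, uses the gradient to make ATP. Complex II is built from nuclear genes alone, whereas the other complexes also hold subunits encoded by mitochondrial DNA. Retinal pigment epithelium is known for its reliance on oxidative metabolism.

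Promoters of 3 genes are shown. SDHD and SDHA are the complex II genes whose brightest probe sets were called in opposite directions. NDUFA13 had the complex I decrease (-0.18) next in size after that of NDUFV3 (-0.19). Each window runs from 250 bases before to 50 bases after the transcription start in RefSeq (GRCh38.p14, all 3 on the plus strand). Capitals mark exact matches, on either strand, to GCATGCGC (the core of the motif of NRF1, a factor known to drive respiratory chain genes), CCGGAAGT (an ETS core, bound by GABP and related factors) or AAGATGGCG (a YY1 core). The SDHD window lies at chr11:112086623-112086922, the SDHA window at chr5:218070-218369 and the NDUFA13 window at chr19:19515975-19516274.
SDHD: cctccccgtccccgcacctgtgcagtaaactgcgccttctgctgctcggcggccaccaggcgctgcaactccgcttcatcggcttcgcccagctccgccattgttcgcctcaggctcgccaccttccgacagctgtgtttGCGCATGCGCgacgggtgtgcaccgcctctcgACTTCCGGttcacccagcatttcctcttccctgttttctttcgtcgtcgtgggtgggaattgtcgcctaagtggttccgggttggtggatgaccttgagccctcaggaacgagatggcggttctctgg
SDHA: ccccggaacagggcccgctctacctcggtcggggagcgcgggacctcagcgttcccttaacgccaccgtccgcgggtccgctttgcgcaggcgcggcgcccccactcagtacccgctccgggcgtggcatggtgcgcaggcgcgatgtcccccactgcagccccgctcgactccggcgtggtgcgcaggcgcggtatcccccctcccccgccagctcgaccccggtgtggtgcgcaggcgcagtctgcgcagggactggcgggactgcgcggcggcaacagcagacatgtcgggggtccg
NDUFA13: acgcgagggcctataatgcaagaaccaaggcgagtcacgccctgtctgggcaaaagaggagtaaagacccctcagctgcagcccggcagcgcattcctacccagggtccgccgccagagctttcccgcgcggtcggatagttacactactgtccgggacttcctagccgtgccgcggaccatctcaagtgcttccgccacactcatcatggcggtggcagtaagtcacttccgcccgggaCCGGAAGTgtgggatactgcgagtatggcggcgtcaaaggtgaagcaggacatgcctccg

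In the SDHD window, GCATGCGC lay on both strands, in overlapping positions that began 108 and 110 bases before the start, and an ETS core lay 78 bases before it. NDUFA13 held an ETS core 10 bases before the start, and SDHA held none of these letters. NDUFV3, whose window is not shown, held none of them either. A RefSeq window was at hand for 68 of the 84 genes, and 9 of them had more than 1 window, of which any could hold the match. GCATGCGC occurred in 13 of the 68 (19.1%), CCGGAAGT in 12 (17.6%) and AAGATGGCG in 8 (11.8%). Over all 35116 windows of the same length the shares were 3.05%, 4.14% and 1.75%, and over the 27305 genes they cover 3.68%, 4.95% and 2.14%, with no matching for base composition. Of the 8 members called lower below that had a window, 0 held GCATGCGC, 3 held CCGGAAGT and 1 held AAGATGGCG, and of 56 tested members not past the threshold 12, 8 and 7 did. Matches are letters only and were not tied to binding.

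Most respiratory chain genes differed little between SATalpha and GFP. Of 79 members bright enough to test, 10 fell, 2 rose and 67 did not pass limma's adjusted p of 0.05, a share called of 15.2% against 20.8% of all 10879 tested genes. By direction, 12.7% fell against 13.0% of all tested genes, and 2.53% rose against 7.72%. Differences ran from -0.19 for NDUFV3 to 0.28 for SDHD on the log2 scale (SATalpha minus GFP throughout), and the median was -0.01 against -0.02 for all tested genes. Sizes were small: 1 of 79 members (1.27%) differed by at least 0.2, against 18.5% of all tested genes. The 95% interval lay within 1.2-fold either way for 74 of 79 members (93.7%), against 57.4% of all tested genes, and the median standard error (SE) was 0.04 against 0.06. The 3 SATalpha values did not overlap the 3 GFP values in 26 members (32.9%), 9 higher and 17 lower, against 37.6% of all tested genes. These shares describe the members and are not a test of the set.

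**Figure D1:**
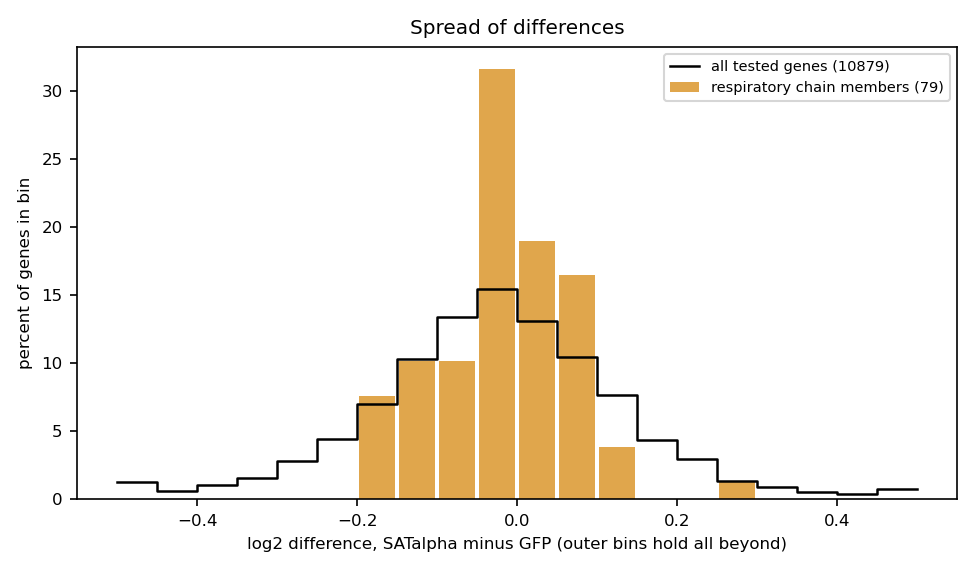
Percent of genes (vertical axis) in bins of the log2 difference SATalpha minus GFP (horizontal axis), for the 79 tested respiratory chain members (bars) and all 10879 tested genes (line). The members gather near 0 with a median of -0.01, and only SDHD lies beyond 0.2.

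**Figure D2:**
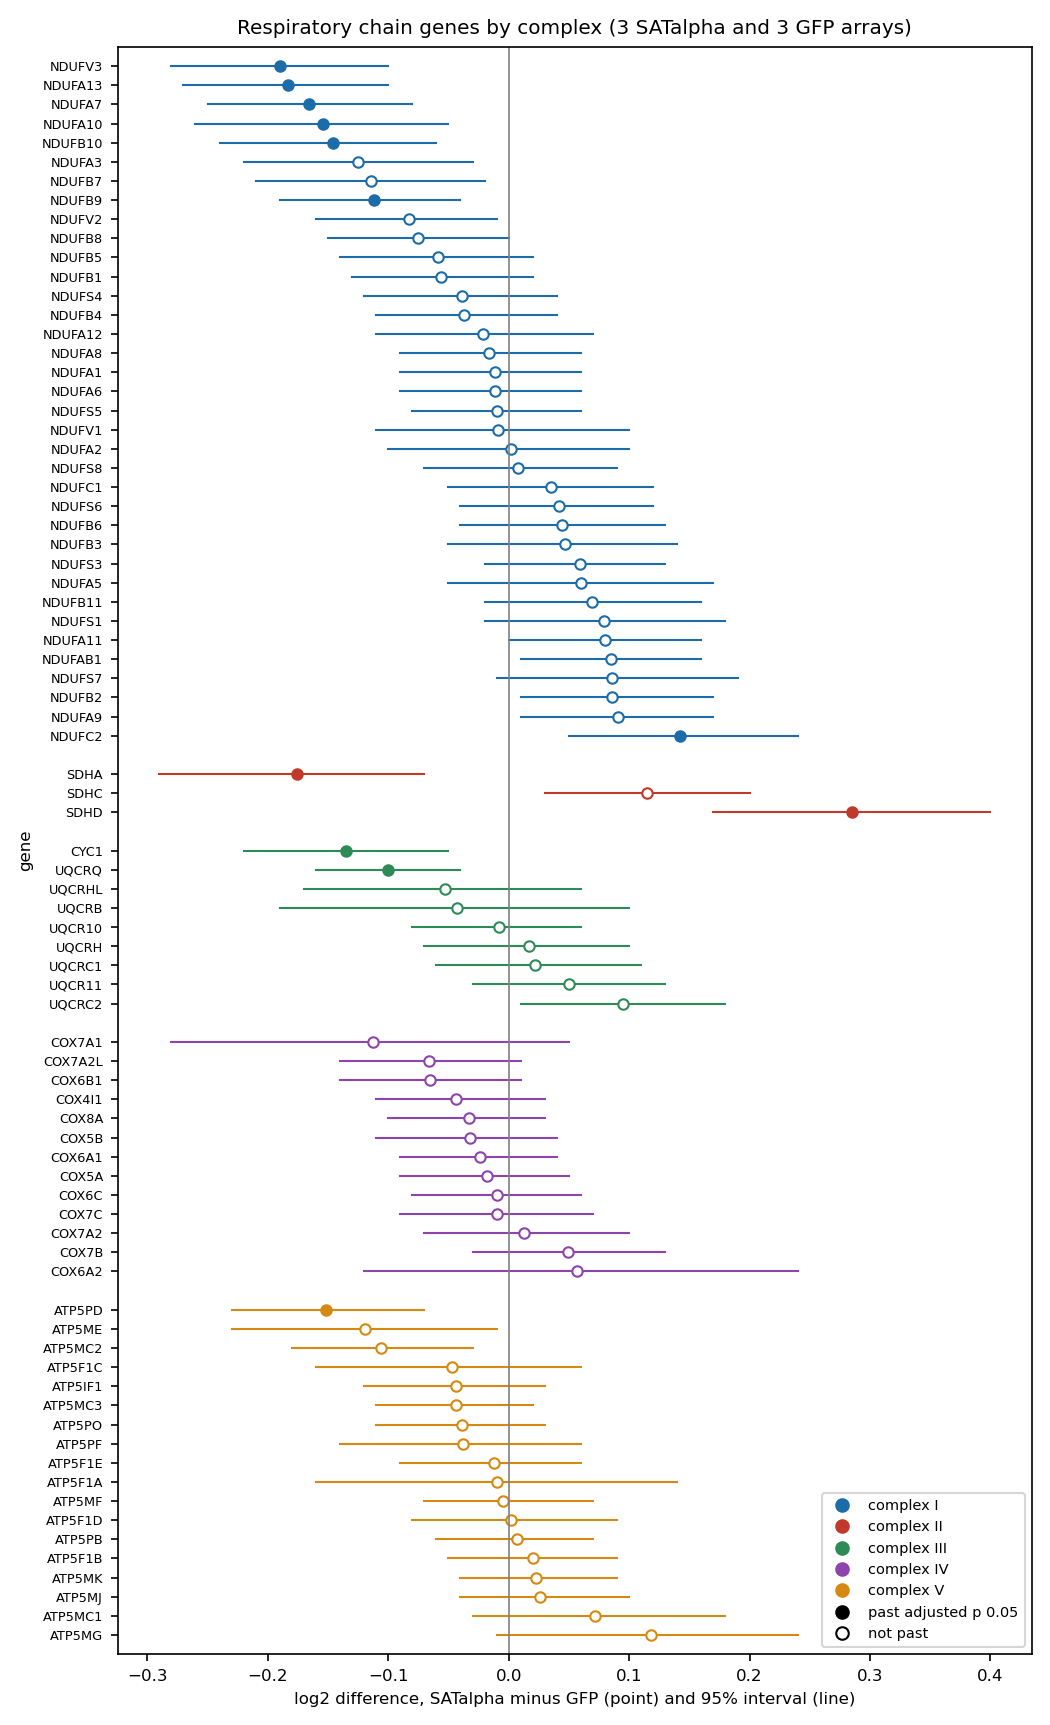
Log2 difference SATalpha minus GFP (points) with its 95% interval (lines) for each of the 79 tested members, grouped by complex, from 3 arrays per group. Filled points passed the adjusted p of 0.05: 7 in complex I, 2 in complex II, 2 in complex III, 0 in complex IV and 1 in complex V.

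Complex I, the NADH dehydrogenase, had 6 genes that fell and 1 that rose of 36 tested. That share of 19.4% stood against 20.8% of all tested genes, and the median difference was -0.01. The 6 genes that fell encode accessory subunits, which surround the catalytic core. Most of the 36 genes tested encode such subunits, and accessory and core genes were not compared as groups. NDUFV3, a small accessory subunit at the NADH-oxidizing tip, read 9.77, 9.80 and 9.73 in GFP replicates 1 to 3 and 9.54, 9.56 and 9.64 in the SATalpha replicates (log2 levels). The SATalpha values were all below the GFP values, a difference of -0.19 (SE 0.04, limma adjusted p = 0.00698), or 1.14-fold lower. Both other NDUFV3 probe sets were also lower, by limma over probe sets not past the threshold (-0.18 and -0.10).

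NDUFA13, also known as GRIM-19 and part of the arm that meets the membrane, read 11.35, 11.32 and 11.26 with GFP and 11.09, 11.09 and 11.19 with SATalpha. Its groups did not overlap, and the difference was -0.18 (SE 0.04, adjusted p = 0.00486 by limma). A second bright NDUFA13 probe set fell by as much (-0.18), while 3 dim ones, below the floor, differed by -0.10 to -0.01. Averaged over its 5 probe sets, NDUFA13 differed by -0.10 and did not pass (limma adjusted p = 0.191). NDUFA7, an accessory subunit of the peripheral arm, read 10.67, 10.65 and 10.57 against 10.46, 10.43 and 10.49. It fell by 0.17 (SE 0.04, limma adjusted p = 0.00944), again without overlap, and had 1 probe set.

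The membrane-arm accessory subunits NDUFA10, NDUFB10 and NDUFB9 fell by less. NDUFA10 read 9.03, 9.06 and 9.08 with GFP and 8.89, 8.82 and 8.98 with SATalpha, a difference of -0.15 (SE 0.05, limma adjusted p = 0.0406). NDUFB10 read 10.17, 10.07 and 10.09 against 9.92, 9.97 and 10.01, a difference of -0.15 (SE 0.04, limma adjusted p = 0.0255). NDUFB9 read 11.12, 11.10 and 11.15 against 11.02, 11.04 and 10.98, a difference of -0.11 (SE 0.03, limma adjusted p = 0.0361). In each of these genes every SATalpha array lay below every GFP array. NDUFB10 had 1 probe set. The 2 other NDUFA10 probe sets both differed by -0.06, and as the mean of its probe sets NDUFA10 did not pass (-0.09, limma adjusted p = 0.204). Of the other NDUFB9 probe sets, those above the floor differed by -0.01 and 0.03, and a dim one, with a mean of 2.73, by -0.19 without overlap between groups. Without the multi-match probe sets (suffix _x_at or _s_at, which can bind several transcripts) NDUFB9 differed by -0.01 (limma adjusted p = 0.888), so that its direction is uncertain.

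NDUFC2, a membrane-arm accessory subunit, was the complex I gene that rose. It read 11.13, 11.16 and 11.05 with GFP and 11.27, 11.16 and 11.33 with SATalpha, a difference of 0.14 (SE 0.04, limma adjusted p = 0.0372). The groups met at the second decimal, since SATalpha replicate 2 exceeded GFP replicate 2 only slightly. Its dimmer probe sets both differed by 0.09, and after quantile normalization NDUFC2 differed by 0.12 and did not pass (limma adjusted p = 0.0997).

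The few tested core subunits of complex I, which bind NADH, flavin and iron-sulfur clusters, did not pass. NDUFV1, which binds NADH, differed by -0.01 (95% interval -0.11 to 0.10), and NDUFV2, a core iron-sulfur subunit, by -0.08 (-0.16 to -0.01, limma adjusted p = 0.0984). The iron-sulfur subunits NDUFS1, NDUFS7 and NDUFS8 differed by 0.08 (-0.02 to 0.18), 0.09 (-0.01 to 0.19) and 0.01 (-0.07 to 0.09). NDUFS3, another core subunit, differed by 0.06 (-0.02 to 0.13), while its other probe set, far below the floor with a mean of 2.59, differed by -0.22. Thus an increase or decrease of the NDUFS1, NDUFS3, NDUFS7, NDUFS8 or NDUFV1 signal above 0.19 lay outside the intervals of the brightest probe sets. By name prefix, the 7 NDUFS genes had a median of 0.04, the 3 NDUFV genes -0.08, the 11 NDUFB genes -0.06, the 13 NDUFA genes -0.01 and the 2 NDUFC genes 0.09. Among the genes not past the threshold, NDUFA3 (-0.13, limma adjusted p = 0.0603) and NDUFA9 (0.09, limma adjusted p = 0.0990) had the smallest p on each side.

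Complex II, the succinate dehydrogenase, held the largest difference among the members. By their brightest probe sets 1 of its genes was called higher and 1 lower, and other probe sets limit both calls. SDHD, one of the small proteins that anchor the enzyme in the membrane, rose, and SDHA, the flavoprotein that oxidizes succinate, fell. SDHD read 9.85, 9.95 and 9.83 with GFP and 10.16, 10.06 and 10.26 with SATalpha. All SATalpha arrays were above all GFP arrays, a difference of 0.28 (95% interval 0.17 to 0.40, SE 0.05, limma adjusted p = 0.00178), or 1.22-fold higher. The size came from 1 of 5 SDHD probe sets. The 4 others differed by 0.09 to 0.10 and did not pass in the fit over probe sets (limma adjusted p from 0.271 to 0.546), and 2 of these 4 held identical values. As the mean of its probe sets SDHD differed by 0.13 and did not pass (limma adjusted p = 0.159).

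SDHA read 9.17, 9.05 and 9.13 with GFP and 9.00, 8.86 and 8.96 with SATalpha. The groups did not overlap, and the difference was -0.18 (95% interval -0.29 to -0.07, SE 0.05, limma adjusted p = 0.0254), or 1.13-fold lower. Its 2 other probe sets were also lower (-0.16 and -0.30), although the latter was dim, with a mean of 3.14, and neither passed. The SDHA gene has near-identical pseudogene copies, and 2 further probe sets listed for SDHA together with them lay outside the rule. The one shared with SDHAP1 and SDHAP2 rose by 0.38 (limma adjusted p = 0.000521 over probe sets) and the one shared with SDHAP3 differed by -0.11 (adjusted p = 0.295), so that the SDHA level is uncertain. These 2 were chosen after their values were seen.

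SDHC, the partner of SDHD in the membrane anchor, read 10.13, 10.14 and 10.06 with GFP and 10.20, 10.20 and 10.27 with SATalpha. It did not pass (0.12, 95% interval 0.03 to 0.20, limma adjusted p = 0.0565), although the groups did not overlap. Across its 5 probe sets, the 4 with means above 9 all differed by 0.09 to 0.17 without overlap, and 1 of them passed over probe sets (0.17, limma adjusted p = 0.0373). The fifth, with a mean of 5.25, differed by -0.11. The median over the 3 complex II genes was 0.12, and it became -0.11 when multi-match probe sets were dropped, since it then rested on the dim SDHC probe set alone.

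**Figure D3:**
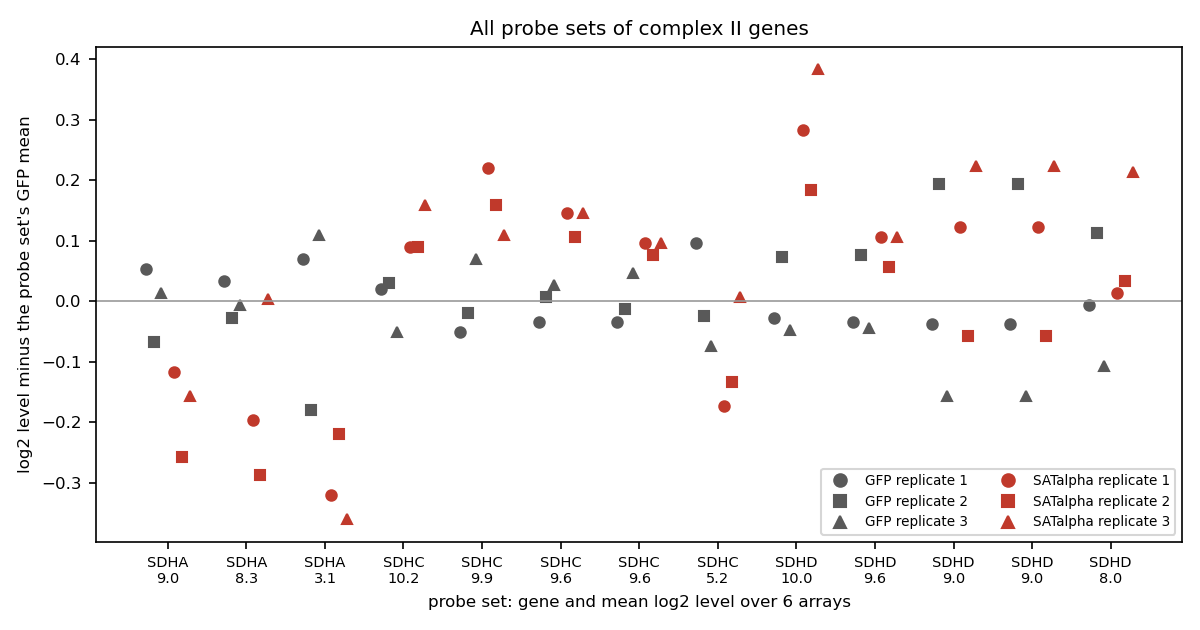
Log2 level of each array minus the probe set's GFP mean (vertical axis) for all 13 probe sets of SDHA, SDHC and SDHD, with the mean level under each gene name. SATalpha arrays are red and GFP arrays grey; the brightest SDHD probe set stands highest at 0.28, while 2 of the other SDHD probe sets are identical to each other.

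Complex III, the cytochrome bc1 complex, had 2 genes that fell and 0 that rose of 9 tested (22.2%, against 20.8% of all tested genes). Its median was -0.01. CYC1, the cytochrome c1 that hands electrons to cytochrome c, read 11.16, 11.18 and 11.05 with GFP and 10.99, 10.95 and 11.04 with SATalpha, a difference of -0.13 (SE 0.04, limma adjusted p = 0.0337). All 3 CYC1 probe sets were lower, and the 2 dimmer ones fell by 0.17 and 0.15 in the fit over probe sets (limma adjusted p = 0.0306 and 0.0393). UQCRQ, a small subunit, read 12.59, 12.57 and 12.58 against 12.46, 12.50 and 12.48, a difference of -0.10 (SE 0.03, limma adjusted p = 0.0292). No SATalpha array reached the lowest GFP array in either gene, while the dimmer UQCRQ probe sets, both far dimmer, differed by -0.20 and 0.03, and the mean of the 3 did not pass (-0.09, limma adjusted p = 0.381). The core proteins UQCRC1 and UQCRC2 differed by 0.02 (95% interval -0.06 to 0.11) and 0.09 (0.01 to 0.18, limma adjusted p = 0.114), and neither passed. UQCRH and UQCRHL, near-identical copies whose signals may be shared, differed by 0.02 and -0.05. A second UQCRH probe set, with a mean of 8.58, differed by -0.16 without overlap (limma adjusted p = 0.0777 over probe sets), so that the UQCRH direction is uncertain. The remaining 3 genes, UQCRB, UQCR10 and UQCR11, differed by -0.04, -0.01 and 0.05.

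Complex IV, the cytochrome c oxidase, had no gene past the threshold: 0 of 13 tested by limma, against 20.8% of all tested genes. At an unadjusted limma p under 0.05 it had 0 genes, against 22 of the 79 tested members. The share of all tested genes at that p was not computed, so neither count can be called low or high. Its median was -0.02 and its differences ran from -0.11 to 0.06. COX4I1, the ubiquitous form of the regulatory subunit COX4, read 12.02, 12.04 and 12.03 with GFP and 11.99, 12.01 and 11.95 with SATalpha. Those groups did not overlap, but the difference was only -0.04 (95% interval -0.11 to 0.03, limma adjusted p = 0.367). A dim COX4I1 probe set with a mean of 5.57 differed by 0.29, and it passed when it stood for the gene without the multi-match probe sets (limma adjusted p = 0.0481), so that the direction of COX4I1 is uncertain. COX5A and COX5B, subunits on the matrix side, differed by -0.02 (-0.09 to 0.05) and -0.03 (-0.11 to 0.04).

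Several complex IV subunits exist as isoforms with different tissue patterns, and these were read separately. Of the pairs, COX6A1 (-0.02), COX6B1 (-0.06), COX7A2 (0.01), COX7B (0.05) and COX8A (-0.03) are the broadly expressed forms, and none passed. COX7A1, the form of heart and skeletal muscle, read 8.05, 7.94 and 7.88 with GFP and 7.75, 7.74 and 8.03 with SATalpha, and the groups overlapped (-0.11, 95% interval -0.28 to 0.05). COX6A2, another muscle form, lay just above the floor with a mean of 5.44 and differed by 0.06. COX4I2, COX6B2, COX7B2 and COX8C, known mainly from lung or testis, had means of 4.74, 4.89, 2.38 and 3.20, below the floor, so they had no test. The supercomplex factor COX7A2L differed by -0.07 (limma adjusted p = 0.199), with no overlap between groups.

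Complex V, the ATP synthase, had 1 gene that fell of 18 tested (5.56%, against 20.8% of all tested genes), 0 that rose and a median of -0.01. ATP5PD, subunit d of the peripheral stalk, read 11.11, 11.03 and 11.02 with GFP and 10.88, 10.95 and 10.89 with SATalpha. Every SATalpha array was below every GFP array, a difference of -0.15 (SE 0.04, limma adjusted p = 0.0124), or 1.11-fold lower, from its only probe set. The other stalk subunits ATP5PB, ATP5PF and ATP5PO differed by 0.01, -0.04 and -0.04.

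The catalytic head of the ATP synthase, which makes ATP, did not pass. ATP5F1A, subunit alpha, read 12.14, 12.17 and 12.31 with GFP and 12.24, 12.36 and 12.00 with SATalpha, a difference of -0.01 (95% interval -0.16 to 0.14). The spread within the SATalpha group exceeded the difference, and the 3 other ATP5F1A probe sets differed by 0.05 to 0.11, without overlap between groups and without passing. ATP5F1B, subunit beta, differed by 0.02 (-0.05 to 0.09) and ATP5F1C, the rotating subunit gamma, by -0.05 (-0.16 to 0.06). ATP5MC1, ATP5MC2 and ATP5MC3 encode the same mature c-ring protein, and they differed by 0.07, -0.11 (limma adjusted p = 0.0558) and -0.04. ATP5IF1, which blocks ATP hydrolysis, differed by -0.04 (-0.12 to 0.03), while its other probe sets ran from -0.06 to 0.19. ATP5MGL, a copy of ATP5MG, had a mean of 4.04 and was not tested.

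**Figure D4:**
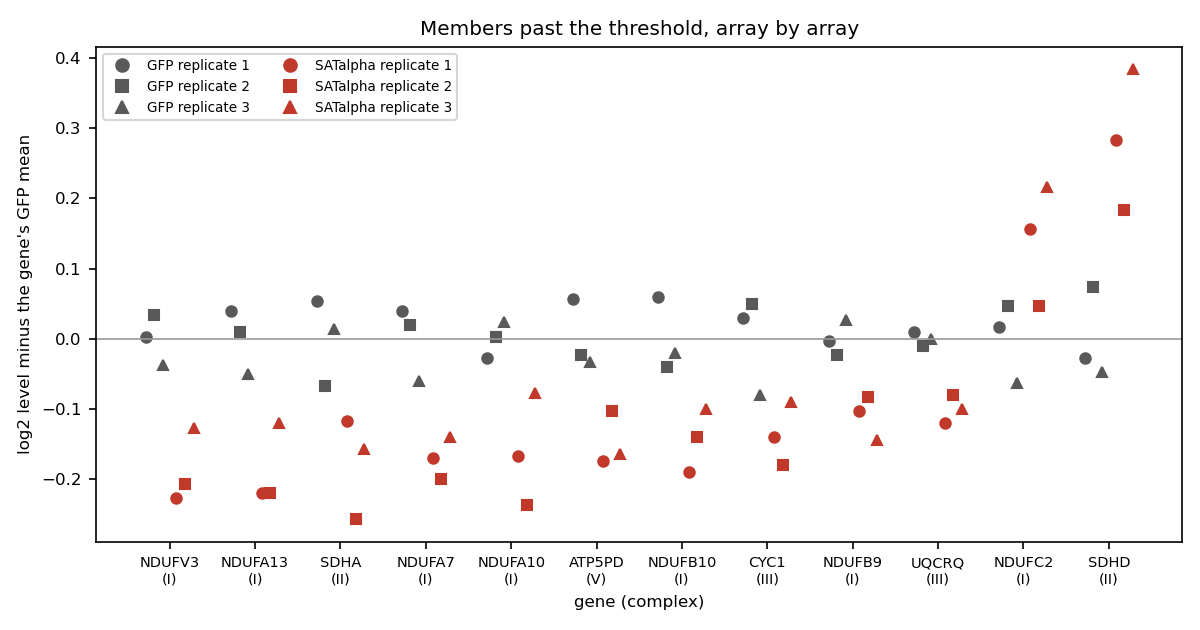
Log2 level of each array minus the gene's GFP mean (vertical axis) for the 12 members past the threshold, with GFP arrays in grey and SATalpha arrays in red and a symbol for each replicate number. The red points lie below the grey ones in 10 genes and above them in NDUFC2 and SDHD, and SDHD shows the largest distance, 0.28.

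Over all 192 probe sets, each tested for itself without a filter, 7 fell and 2 rose by limma's adjusted p over all non-control probe sets. These were 3.65% and 1.04% of the members' probe sets, against 4.19% and 4.18% of all probe sets. They belonged to NDUFV3, NDUFA7, NDUFA13 (2 probe sets), CYC1 (2), ATP5PD, SDHC and SDHD. Where a gene had more than 1 probe set above the floor, which held for 46 genes, signs differed in 22. Disagreement by over 0.2 among such probe sets was seen in ATP5IF1, ATP5MG, COX4I1 and SDHC.

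The calls depended on single arrays. Only NDUFV3, NDUFA13 and SDHD passed whichever array was left out, and the other 9 lost the call at least once. These 9 also lost it when the variance was fitted without a trend on the mean. All 9 lost it without GFP replicate 1, where calls over all tested genes also went from 2259 to 1216. With that array left out 2 members fell and 1 rose. NDUFA7 then differed by -0.14 (limma adjusted p = 0.0683) and NDUFA10 by -0.17 (limma adjusted p = 0.0922). GFP replicate 1 was the highest of its group in 45 of 79 members, and whether this bears on the lost calls was not tested. Without SATalpha replicate 1, 4 fell and 1 rose, and 7 of the 12 lost the call, among them ATP5PD at -0.14 (limma adjusted p = 0.0659) and NDUFB10 at -0.12 (0.117). Without GFP replicate 2 or GFP replicate 3, 6 and 7 fell, and CYC1 (-0.11, limma adjusted p = 0.137) and SDHA (-0.17, limma adjusted p = 0.0700) were lost in turn. The number that fell was 8 without SATalpha replicate 2, where SDHA was lost (-0.14, limma adjusted p = 0.0839), and 13 without SATalpha replicate 3, where NDUFC2 was lost (0.10, limma adjusted p = 0.0846). In these 4 cases 2 genes rose. NDUFA10, NDUFB9 and UQCRQ kept the call in 1, 1 and 2 of the 6 cases.

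Genes around the respiratory chain were read from lists. Of the subunits encoded by mitochondrial DNA, 3 of 13 were tested and 0 passed by limma, with 1 at an unadjusted p under 0.05. That one was ND1, a core membrane subunit of complex I (0.14, limma adjusted p = 0.0535), while COX3 of complex IV differed by -0.10 (limma adjusted p = 0.538). The share of all tested genes at that unadjusted p was not computed. Among assembly factors 5 rose and 3 fell of 51 tested (15.7%, against 20.8% of all tested genes), with a median of -0.04. COX19, which helps deliver copper to complex IV, rose by 0.45 (SE 0.05, limma adjusted p = 3.36e-05), but its 3 other probe sets differed by -0.12 to 0.04. The mean of all 4 did not pass (0.07, limma adjusted p = 0.499), so the COX19 direction is uncertain. COX16, another complex IV factor, rose by 0.19, and the complex I factors NDUFAF5 and NDUFAF1 differed in opposite directions, by -0.19 and 0.18. These 3 lost the call without GFP replicate 1, where COX16 differed by 0.19, NDUFAF5 by -0.15 and NDUFAF1 by 0.17. They also lost it without SATalpha replicate 1 (0.17, -0.19 and 0.18). COX16 and NDUFAF5 lost it without GFP replicate 2 as well (0.16 and -0.19), NDUFAF5 without SATalpha replicate 2 (-0.18), and NDUFAF1 without GFP replicate 3 or SATalpha replicate 3 (0.16 and 0.15).

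In the list of electron and substrate carriers 2 rose and 5 fell of 21 (33.3%), median -0.05, against 7.72% higher and 13.0% lower of all tested genes. The 4 with the smallest p, named by rule, were COQ genes of ubiquinone synthesis, of which the list holds several, and ubiquinone synthesis was not tested as a group. COQ9, which binds ubiquinone intermediates, fell by 0.25 (limma adjusted p = 0.00112), the methylase COQ5 by 0.28 (0.00375) and the hydroxylase COQ6 by 0.28 (0.0116), whereas the methylase COQ3 rose by 0.26 (0.00410). COQ6 lost the call without GFP replicate 1 (-0.23, limma adjusted p = 0.0742), and other probe sets of COQ9 (-0.09 to 0.13) and COQ6 (-0.21 to 0.08) did not all fall. As the mean of all probe sets COQ9 differed by -0.03 (limma adjusted p = 0.798) and COQ6 by -0.10 (0.362). Without multi-match probe sets COQ5 differed by -0.09 (limma adjusted p = 0.375). Of 14 tested genes of pyruvate dehydrogenase and the citric acid cycle, 0 passed by limma, against 20.8% of all tested genes, and the median was 0.01. Of these 14, 6 had an unadjusted limma p under 0.05, and the share of all tested genes at that p was not computed. DLAT, the acetyltransferase of pyruvate dehydrogenase, differed by 0.21 (limma adjusted p = 0.0528) and IDH3B by -0.11 (0.0855). The other DLAT probe sets differed by 0.17 to 0.29, and as the mean of its probe sets DLAT passed (0.22, limma adjusted p = 0.0048). IDH3B differed by -0.01 as such a mean (limma adjusted p = 0.891).

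Regulators of mitochondrial biogenesis had 3 higher and 1 lower of 16 tested (25.0%, against 20.8% of all tested genes), with a median of 0.00. TWNK, the helicase that replicates mitochondrial DNA, had levels of 7.34 ± 0.07 with GFP and 7.75 ± 0.09 with SATalpha (mean ± SD, n = 3) and rose by 0.41 (adjusted p = 0.000531 in limma), and its other probe set differed by 0.40. TFB2M, a mitochondrial transcription factor, rose by 0.26 (limma adjusted p = 0.000612). YY1 rose by 0.24 (0.0132), but not with any one of GFP replicates 1 and 2 and SATalpha replicate 1 left out (0.24, 0.22 and 0.24), and the remaining YY1 probe sets ran from -0.14 to 0.17 (mean of all 0.07, adjusted p = 0.321 in limma), so its direction is uncertain. PPARGC1A, a coactivator of these genes, had levels of 5.60 ± 0.21 with GFP and 5.12 ± 0.21 with SATalpha (SD, n = 3). The SATalpha mean lay below the floor of 5.19, so PPARGC1A came into the test only through its GFP level. It differed by -0.48 (adjusted p = 0.0158 in limma), and its other probe sets by -0.38 to -0.04. With a replicate block it did not pass (limma adjusted p = 0.0623). Without GFP replicate 2 or SATalpha replicate 2 the PPARGC1A difference was -0.36 and no longer passed (limma adjusted p = 0.0823 and 0.0551). In the mitochondrial ribosome 6 of 75 rose and 9 fell (20.0%, against 20.8% of all tested genes), median -0.02. MRPL14 differed by -0.21, MRPS26 by -0.22, MRPS33 by -0.21 and MRPL30 by 0.21. MRPS26 and MRPS33 lost the call without GFP replicate 1 (-0.20 and -0.19).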

How the data were processed

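Array values were the log2 levels that the authors deposited in one table, 1 column per array, already normalized between arrays. The scale was read from the values. MAS5 and RMA both appear in the submitters' processing notes, with no word on which gave these values, and their versions are unstated in the sources read here. The methods treat background differently, which affects dim probe sets most. Scan dates and batches are not in the labels, so no batch could be checked.

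Probe sets were named from the platform annotation: 44988 had 1 symbol, 1832 several and 2473 none listed, beside 79 controls. Each gene was its brightest probe set by mean over 6 arrays, and the lowest 40% of genes (floor 5.19) were left out. Groups were compared with limma 3.58.1 in R 4.3.3 (lmFit, eBayes with a mean-variance trend) over all 10879 genes, and separately over all 49293 non-control probe sets, with Benjamini-Hochberg adjustment and a threshold of 0.05. The procedure was tested on 10 simulated data sets with 200 changed genes each. It recovered 40.1% of 1.2-fold and 91% of 1.5-fold changes, with 4.18% false calls. The simulated sets held far fewer changed genes than the 2259 of 10879 that passed here. The members also had a smaller median SE than all tested genes (0.04 against 0.06). The recovered shares therefore do not carry over to the members, and a gene not called may still differ. The number of arrays limits the precision.

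Named were all members past the threshold, core subunits and isoform pairs, members whose probe sets disagree, and up to 4 genes of each surrounding list (up to 2 where none passed). In complex IV, where none passed, these were the 2 with the smallest p (COX7A2L and COX6B1). Members and lists were chosen with earlier results of these data known. Complexes follow name prefixes. Alternatives changed the filter, probe set choice, normalization, weights, block, variance trend and arrays.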

Additional observations from a re-analysis of the deposited data

How the results depend on the processing

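The complex I, IV and V medians moved by less than the spread between arrays under every alternative that kept all arrays. The complex III median (-0.008) moved to -0.047 with the mean of all probe sets and to -0.031 without multi-match probe sets, and the complex II median (0.115) moved to -0.106 under the latter. Genes that rose numbered 2, but 1 with no filter, with quantile normalization, with a replicate block or with no mean-variance trend. They numbered 0 with the mean of all probe sets and 3 with array weights. Genes that fell numbered 10, but 4 with the replicate block, 2 without the trend and 16 with array weights, and 7 to 13 under the other alternatives that kept all arrays. Calls over all tested genes moved too, from 2259 to 1300 with the block, 1781 without the trend and 3328 with array weights. Probe sets that rose numbered 2, but 1 with the block, 0 without the trend and 5 with array weights; those that fell numbered 7, but 11 with quantile normalization, 0 with the block, 0 without the trend and 15 with array weights. COX4I1 turned to 0.29 without multi-match probe sets, where a dim probe set stands for it. The cause of the other shifts was not tested.

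Same-numbered arrays of the groups did not deviate together (correlations of -0.003, -0.239 and -0.287), and 0 of 6 arrays lay closest to their own number, so the replicate block takes out no shared source known from the labels. Leaving out each array in turn gave 1216 to 2520 tested genes past the threshold, 1 to 2 members higher and 2 to 13 lower, and 1 to 3 probe sets higher and 0 to 12 lower. Complex medians then ran from -0.015 to 0.007 (I), 0.090 to 0.128 (II), -0.018 to 0.013 (III), -0.035 to -0.016 (IV) and -0.039 to 0.005 (V). A gene past the threshold in neither setting was not counted as turned when its sign changed. Of the 12 members past the threshold, only NDUFV3 passed under every alternative run.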

Other observations

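Complex IV has further subunits of the COXFA4 family, once named as complex I subunits, whose current symbols lie outside the rule. COXFA4 read 12.58, 12.54 and 12.47 with GFP and 12.44, 12.49 and 12.50 with SATalpha, with overlapping groups and a difference of -0.05 (95% interval -0.13 to 0.02, limma adjusted p = 0.322). COXFA4L2, a paralog known to be induced by hypoxia, had a mean of 4.69, below the floor, and was not tested. COXFA4L3 differed by -0.20 (-0.40 to 0.00, limma adjusted p = 0.155) at a mean of 5.68. These genes were chosen after the annotation was read. A probe set listed for NDUFS1 together with GCSH and related loci rose by 0.19 (limma adjusted p = 0.0273 over probe sets), whereas the probe sets of NDUFS1 alone differed by 0.01 to 0.14 and did not pass.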
